A study of Mus musculus with 3 samples.

Results

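Glutathione and antioxidant enzymes were read as 55 genes among the 18193 genes measured, or 99 of 45101 probe sets. Membership was set by a rule on gene symbols, written with earlier results of these data known. The genes fall into 23 glutathione transferases, 15 enzymes that remove peroxide or superoxide, 9 thioredoxin and glutaredoxin enzymes, 4 genes of glutathione synthesis and reduction, and 4 genes of the Nrf2 axis. The samples were cells obtained by collagenase digestion of femur and tibia fragments of C57BL/6 mice. Cells carrying CD45, CD31 or Ter119 were removed, and the rest were sorted by PDGFRa and Sca-1. PDGFRa, a growth factor receptor, marks mesenchymal cells, and Sca-1 is used as a marker of their progenitors. The 3 populations PDGFRa(-) Sca-1(-), PDGFRa(+) Sca-1(-) and PDGFRa(+) Sca-1(+) had 1 array each. No age, treatment or number of animals is given in the sources used here. Differences therefore have no replicate check and no test, and precision is limited by having only 3 arrays.

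Glutathione is a small thiol that cells make from glutamate, cysteine and glycine. Transferases join it to reactive lipids and foreign compounds, and glutathione peroxidases, peroxiredoxins and catalase destroy peroxides. Superoxide dismutases turn superoxide into hydrogen peroxide, while thioredoxin and glutaredoxin keep protein thiols reduced. Nrf2, encoded by Nfe2l2, is held at low level by Keap1 and, when released, binds antioxidant response elements near many of these genes. In bone, oxidants are known to act on the formation and resorption of matrix.

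A common floor of 93.2 signal units, the mean of the 3 array medians, stood in for detection calls. A gene under it on 1 of the compared arrays gives only a bound, written as "at least", and a gene under it on both was not compared. Genes counted as higher or lower had ratios of 2-fold or more. The scatter of log2 ratios between different probe sets of the same gene had an SD of 0.60 for PDGFRa(+) Sca-1(+) over PDGFRa(+) Sca-1(-), 0.37 for PDGFRa(+) Sca-1(-) over PDGFRa(-) Sca-1(-) and 0.50 for PDGFRa(+) Sca-1(+) over PDGFRa(-) Sca-1(-). It covers probes and transcripts, not animals. The first of these comparisons is called the Sca-1 step, the second the PDGFRa step, and the third that of the outermost populations. Of the 55 genes, 41 lay above the floor on all 3 arrays, 5 on only 1 or 2 of them, and 9 on none.

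The arrays differed in other ways. The 14 chondrocyte markers summed to signals of 286647, 304377 and 19006 in PDGFRa(-) Sca-1(-), PDGFRa(+) Sca-1(-) and PDGFRa(+) Sca-1(+) cells, and the 13 fibroblast markers to 76865, 90556 and 211273. Erythroid markers, 13 of 15 measured, summed to 8316, 2924 and 1950 in the same order, mostly through Tfrc, with 8, 9 and 4 of the 13 above the floor. Hemgn (360, 138 and 53.8), Ermap (251, 118 and 101), Gata1 (204, 162 and 105), Klf1 (192, 96.2 and 59.7) and Kel (153, 93.7 and 25.4) had the same order. Ank1 (203, 189 and 324), Epor (144, 152 and 87.4) and Slc4a1 (53.0, 112 and 36.0) did not. Alas2, Epb42, Rhag and Tal1 were under the floor throughout. Osteoblast markers, 9 of 13 measured, summed to 45444, 129547 and 19492. The 10 endothelial markers summed to 407, 530 and 1253, with 1, 3 and 2 above the floor. The last of these sums came mostly through Tek, at 13.3, 37.4 and 888, while Egfl7 ran the other way at 112, 98.5 and 67.7. Adipocyte markers, 8 of 9 measured, summed to 1055, 1829 and 10625, mostly through Lpl, with 2, 3 and 4 above the floor. Adipoq, another of them, gave 79.5, 294 and 58.4, highest on the PDGFRa(+) Sca-1(-) array. The 8 osteoclast markers summed to 5456, 4795 and 13270, mostly through Ctsk. Ptprc and Pecam1, which encode CD45 and CD31, were under the floor on all 3 arrays. The ratio of 3' to 5' signal of the Actb control was 2.99, 2.63 and 4.65. For the Gapdh control it was 3.93, 3.54 and 4.73. By both controls the PDGFRa(+) Sca-1(+) array favoured 3' ends most, with a narrower difference for Gapdh. These differences run with the comparisons, and their part in the results below was not tested. In such sorted bulk samples, fewer cells of a type and less RNA per cell cannot be told apart.

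Promoter sequences are shown for Srxn1 and Mgst1, the members with the lowest and the highest ratio measured on both arrays for PDGFRa(+) Sca-1(+) over PDGFRa(-) Sca-1(-) cells, and for Mgst2, the microsomal relative that ran opposite to Mgst1. Each is the 250 bases before the gene's start, 5' to 3', from RefSeq, build GRCm38.p6. Capitals mark matches to the antioxidant response element core TGACNNNGC or to the AP-1 element TGANTCA, searched on both strands; the second reads the same on either.
Srxn1, chr2:152105274-152105523, + strand: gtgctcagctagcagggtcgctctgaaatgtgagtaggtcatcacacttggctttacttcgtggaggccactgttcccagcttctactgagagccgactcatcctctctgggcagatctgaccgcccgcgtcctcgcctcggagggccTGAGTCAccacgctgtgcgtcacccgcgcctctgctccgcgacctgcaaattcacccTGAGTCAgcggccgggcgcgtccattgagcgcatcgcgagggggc
Mgst1, chr6:138140277-138140526, + strand: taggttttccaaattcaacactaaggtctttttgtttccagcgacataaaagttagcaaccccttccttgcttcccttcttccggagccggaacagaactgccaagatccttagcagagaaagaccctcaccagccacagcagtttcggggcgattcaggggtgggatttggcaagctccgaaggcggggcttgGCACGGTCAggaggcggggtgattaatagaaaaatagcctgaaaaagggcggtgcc
Mgst2, chr3:51660929-51661178, + strand: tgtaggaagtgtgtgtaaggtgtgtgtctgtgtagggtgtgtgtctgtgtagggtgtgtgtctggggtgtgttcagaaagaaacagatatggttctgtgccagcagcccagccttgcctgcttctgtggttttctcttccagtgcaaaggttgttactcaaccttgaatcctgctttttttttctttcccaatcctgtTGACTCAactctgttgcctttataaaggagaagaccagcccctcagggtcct
Srxn1 held 2 AP-1 matches, starting 102 and 45 bases before the start, and an antioxidant core match that lay at bases 29 to 37 after it. In Mgst1 the only match was an antioxidant core on the reverse strand, starting 56 bases before the start. Its other listed start had none. The Mgst2 match was an AP-1 element starting 52 bases before the start. Windows of 300 bases, 250 before and 50 after a start, were listed for 49 of the 55 genes. The antioxidant core was in 9 of their 66 windows, or 13.6%, against 12.4% of all 32851 windows. For the AP-1 element the share was 4 of 66, or 6.06%, against 7.81%. The genes with the antioxidant core were Gclm, Gsta3, Gstm5, Gstm7, Mgst1, Nfe2l2, Sod1, Srxn1 and Txnrd1, and those with the AP-1 element were Gstm5, Gstp1, Mgst2 and Srxn1. With the core read only as TGACNNNGC, no match of one motif overlapped a match of the other in these windows. Other spellings of the core were not searched. A match describes letters only, and more distant elements were not searched.

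Most transferase genes that differed at the Sca-1 step were higher in PDGFRa(+) Sca-1(+) cells, with the widest ratios for Mgst1, Gstt1 and Gstm1, whereas Mgst2 and Gstz1 were lower there. Against PDGFRa(+) Sca-1(-) cells, 17 of the 23 could be compared. Of these, 7 passed 2-fold upward, 2 passed it downward and 8 did neither; the median log2 ratio was 0.84, or 0.44 with the mean over probe sets. Over all 11855 genes compared, 14.9% were higher and 11.3% lower, 26.2% in all, with a median of 0.07. Against PDGFRa(-) Sca-1(-) cells, 8 of 17 transferases were higher and 3 lower, with a median of 0.71, beside 14.5% and 12.2% of 11843 genes and a median of 0.03. Because 5 of the 17 lay above the floor on only some arrays, and such genes pass through the array where they are high, these shares describe the list and no more.

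**Figure D1:**
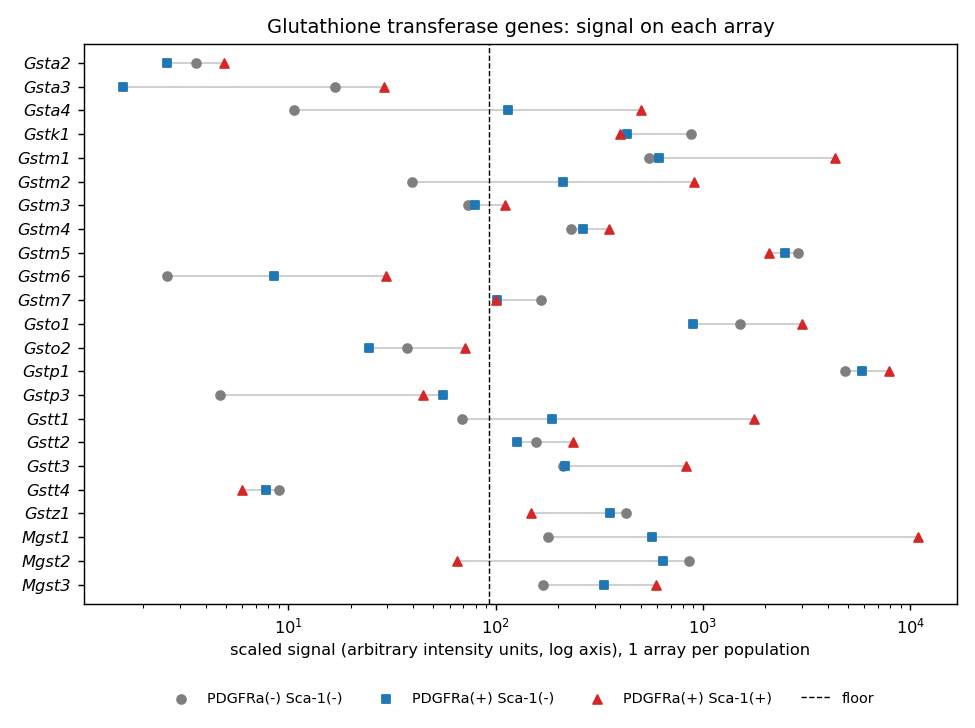
Scaled signal of the 23 glutathione transferase genes on a log axis, with 1 marker per population (1 array each) and the floor of 93.2 as a dashed line. Mgst1, Gstt1, Gstm1 and Gstm2 have the PDGFRa(+) Sca-1(+) array far to the right, Mgst2 has it far to the left, and 6 genes lie under the floor on all arrays.

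Mgst1 encodes a membrane transferase of the endoplasmic reticulum and outer mitochondrial membrane that also reduces lipid peroxides. Its signal was 179.5 in PDGFRa(-) Sca-1(-), 568 in PDGFRa(+) Sca-1(-) and 10868 in PDGFRa(+) Sca-1(+) cells. The Sca-1(+) array stood far above the others, and the 2 Sca-1(-) arrays differed too. The ratio was 19.1-fold against PDGFRa(+) Sca-1(-) cells, and PDGFRa(+) Sca-1(-) exceeded PDGFRa(-) Sca-1(-) cells by 3.16-fold. All of this rests on 1 probe set, whose suffix marks probes shared between transcripts. The other Mgst1 probe set was under the floor everywhere, with signals of 19.8, 30.4 and 16.2, and so gave no ratio. With the mean over both, the log2 ratios were 2.13 and 0.83 in place of 4.26 and 1.66.

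Of the other microsomal transferases, Mgst2 ran the other way, and Mgst3 rose in the same order as Mgst1 but with narrower ratios. Mgst2, which encodes an enzyme able to make leukotriene C4, gave 860 in PDGFRa(-) Sca-1(-), 639.6 in PDGFRa(+) Sca-1(-) and 64.9 in PDGFRa(+) Sca-1(+) cells, the last under the floor. It was thus lower by at least 6.87-fold than in PDGFRa(+) Sca-1(-) cells and by at least 9.23-fold than in PDGFRa(-) Sca-1(-) cells. Mgst3, a related membrane peroxidase, gave 169.7, 333 and 596. Its ratio was 3.51-fold between the outermost arrays, 1.96-fold at the PDGFRa step and 1.79-fold at the Sca-1 step, and only its outermost ratio passed 2-fold. Its other probe set stayed under the floor.

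Among mu-class genes, Gstm1 and Gstm2 were higher in PDGFRa(+) Sca-1(+) cells and the others measured lay within 2-fold. Gstm1, which conjugates many electrophiles, gave 548, 616 and 4333 in PDGFRa(-) Sca-1(-), PDGFRa(+) Sca-1(-) and PDGFRa(+) Sca-1(+) cells. The Sca-1(-) arrays were close together, and the Sca-1(+) array was 7.03-fold above PDGFRa(+) Sca-1(-). All 4 Gstm1 probe sets pointed the same way, from 3.84-fold to 7.03-fold. Gstm2 was under the floor in PDGFRa(-) Sca-1(-) cells at 39.6, and reached 212 and 909 in the others, a ratio of 4.29-fold between the PDGFRa(+) populations. Gstm4 had signals of 231, 264 and 353, and Gstm5 of 2865, 2477 and 2084, both within 2-fold. Gstm7 ran from 165.7 to 102 and 100.5, and Gstm3 passed the floor only in PDGFRa(+) Sca-1(+) cells, at 111. Gstm6 was under the floor throughout. These 7 mu genes lie side by side in the RefSeq gene order on chromosome 3 with 0 other protein-coding genes between them, in the order Gstm5, Gstm7, Gstm6, Gstm3, Gstm2, Gstm1, Gstm4. Mu-class transcripts are close in sequence, so probes may not separate them fully, and the Gstm1 and Gstm2 values carry that uncertainty.

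The theta class repeated the direction. Gstt1, which acts on halogenated compounds and organic peroxides, gave 68.5 in PDGFRa(-) Sca-1(-) cells, under the floor, then 187 and 1761. It was 9.42-fold higher in PDGFRa(+) Sca-1(+) than in PDGFRa(+) Sca-1(-) cells and at least 18.9-fold higher than in PDGFRa(-) Sca-1(-) cells. Gstt3 gave 211, 216 and 831, so only the Sca-1(+) array stood apart, by 3.84-fold over PDGFRa(+) Sca-1(-). Gstt2 was within 2-fold at 156.6, 127 and 235, and Gstt4 was under the floor. These 4 genes are also direct neighbours, on chromosome 10.

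Of the alpha class, only Gsta4 was above the floor. It encodes an enzyme that clears hydroxynonenal, a product of lipid peroxidation, and gave 10.7, 114.5 and 505, a 4.41-fold ratio between the PDGFRa(+) populations. Gsta2 and Gsta3 stayed under the floor. Gstp1, the pi-class enzyme, was within 2-fold, with 4838, 5821 and 7899, and Gstp3 was under the floor. Gsto1, an omega enzyme that also reduces dehydroascorbate, gave 1502, 892 and 3005. That is 3.37-fold over PDGFRa(+) Sca-1(-) cells, but its other probe set gave 863, 631 and 957, which is 1.52-fold. Its 2.00-fold ratio to PDGFRa(-) Sca-1(-) cells sat on the threshold. Gsto2 stayed under the floor.

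Gstz1 was lower at the Sca-1 step and Gstk1 at the PDGFRa step. Gstz1, which isomerises maleylacetoacetate in tyrosine breakdown, gave 425, 358 and 148, and was 2.42-fold lower in PDGFRa(+) Sca-1(+) than in PDGFRa(+) Sca-1(-) cells. Gstk1, a mitochondrial and peroxisomal enzyme, gave 879, 430.2 and 399, so here PDGFRa(-) Sca-1(-) was the high array, by 2.04-fold over PDGFRa(+) Sca-1(-) cells. At that PDGFRa step Mgst1, Gstm2 (at least 2.28-fold) and Gstt1 (at least 2.01-fold) were the higher transferases and Gstk1 the lower, 4 of 16 compared. The share over all 11675 genes was 4.82% higher and 5.63% lower, 10.4% in all. Signals of Mgst1, Mgst3, Gstm2, Gstt1 and Gsta4 were thus lowest in PDGFRa(-) Sca-1(-) and highest in PDGFRa(+) Sca-1(+) cells, whereas Gstm1 and Gstt3 were nearly level over the Sca-1(-) pair.

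**Figure D2:**
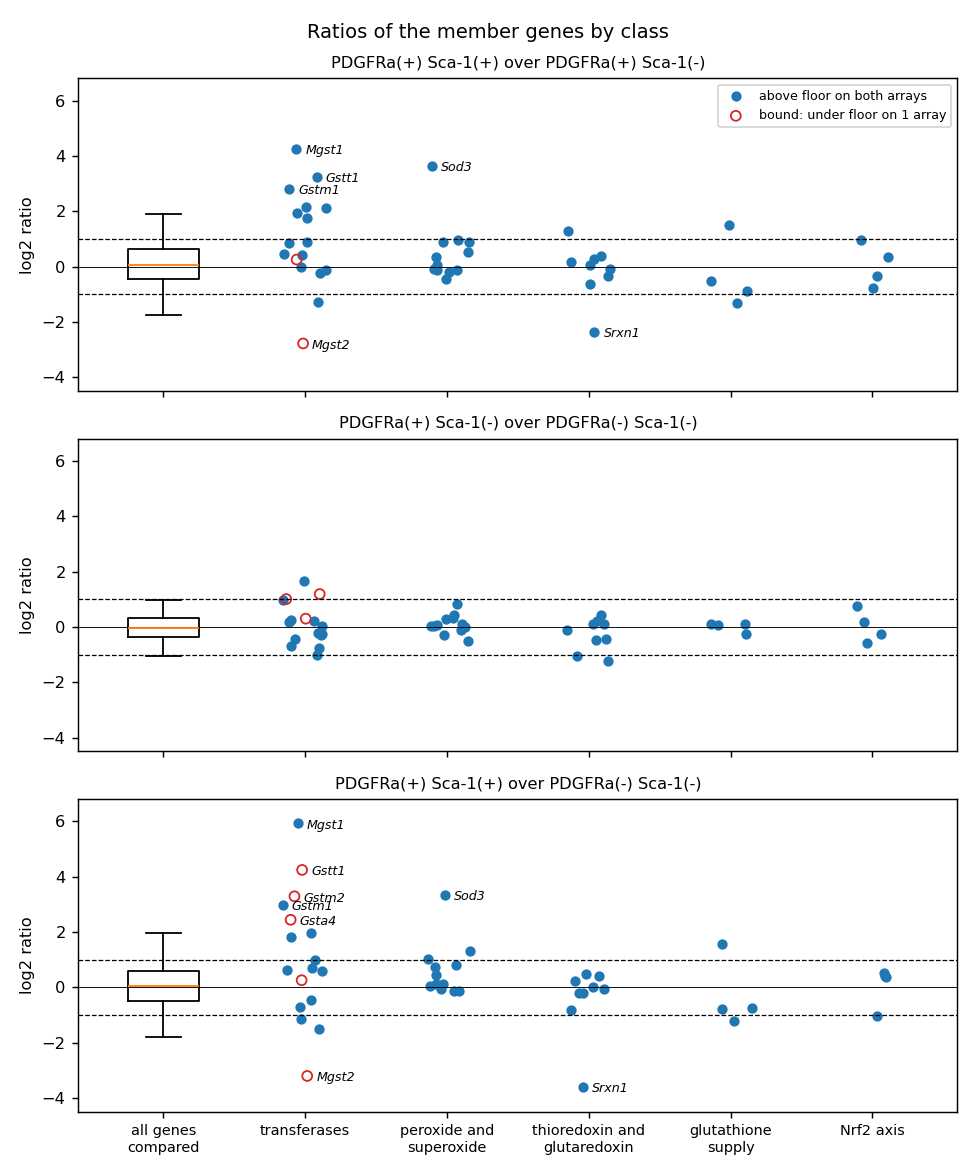
log2 ratio of each member gene in the 3 comparisons, by class, with dashed lines at 2-fold; open circles are bounds with 1 array under the floor. The box spans the 25th to 75th percentile of all genes compared, its line is the median and its whiskers reach the 5th and 95th percentiles, and the genes farthest from it are Mgst1 above and Srxn1 and Mgst2 below.

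Enzymes that remove peroxide and superoxide were mostly within 2-fold. The exceptions were Sod3 and, against PDGFRa(-) Sca-1(-) cells only, Cat and Gpx4. Of 15 genes, 12 could be compared and all 12 were above the floor on the 3 arrays. Against PDGFRa(+) Sca-1(-) cells 1 was higher and 0 were lower, and the median log2 ratio over the 12 was 0.20. The sign of that median turned with the setting: it was −0.08 with a lower floor (33rd percentile), −0.08 with a pseudocount and no floor, and −0.006 without probe sets of shared suffix. In all, 8.33% passed 2-fold, beside 26.2% of all genes. Against PDGFRa(-) Sca-1(-) cells 3 were higher and 0 lower, or 25% beside 26.6%, with a median of 0.28, or 0.10, 0.10 and 0.06 under the same settings. At the PDGFRa step 0 of the 12 passed 2-fold, beside 10.4% of all genes, a small difference for a list of 12.

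Sod3, the superoxide dismutase secreted into the matrix, gave 419, 344 and 4273 in PDGFRa(-) Sca-1(-), PDGFRa(+) Sca-1(-) and PDGFRa(+) Sca-1(+) cells. The Sca-1(+) array was 12.4-fold above PDGFRa(+) Sca-1(-) and 10.2-fold above PDGFRa(-) Sca-1(-) cells, while the Sca-1(-) pair differed little. Its other probe set gave 141, 144 and 818, ratios of 5.69-fold and 5.79-fold. The intracellular dismutases did not follow it. Sod1, of the cytosol, gave 11221, 13830.4 and 12039, and Sod2, of mitochondria, gave 4296, 4318 and 3918. By the probe sets used, the largest ratio between arrays was 1.23-fold for Sod1 and 1.10-fold for Sod2. A fainter Sod1 probe set (454, 327 and 712) was 2.18-fold higher at the Sca-1 step. A fainter Sod2 probe set (1266, 952 and 782) was 1.62-fold lower in PDGFRa(+) Sca-1(+) than in PDGFRa(-) Sca-1(-) cells.

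Cat, the peroxisomal catalase, gave 2637, 3577 and 6596. It was 2.50-fold higher in PDGFRa(+) Sca-1(+) than in PDGFRa(-) Sca-1(-) cells and 1.84-fold higher than in PDGFRa(+) Sca-1(-) cells, and its other probe set gave 2.59-fold and 2.00-fold. Prdx2, a cytosolic peroxiredoxin, gave 4669, 4360 and 8069, which is 1.85-fold between the PDGFRa(+) populations by this probe set and 3.65-fold by the other. Catalase and Prdx2 are also abundant in red cells; the erythroid markers given above summed to 8316, 2924 and 1950, mostly through Tfrc, and their part in these values was not tested. Gpx4, which reduces lipid peroxides within membranes, gave 3199.9, 3317 and 6440.4, and its ratios of 2.01-fold and 1.94-fold lay on either side of the threshold. Its other probe set gave 1.81-fold and 1.58-fold.

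The remaining peroxidases lay within 2-fold. Gpx3, the secreted peroxidase, gave 13848, 15066 and 18953, and Gpx1, of the cytosol, gave 3317, 5824 and 5497. Gpx7 and Gpx8, which reside in the endoplasmic reticulum, gave 2282, 2337 and 2446 and 5317, 6583 and 4818. Mitochondrial Prdx3 gave 1279, 896 and 1305, and Prdx4, of the secretory pathway, gave 3453, 3536 and 3264. By the probe sets used, none of these 6 reached 2-fold between any arrays. Gpx2, Gpx5 and Gpx6 stayed under the floor, with a highest signal of 63.9.

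**Figure D3:**
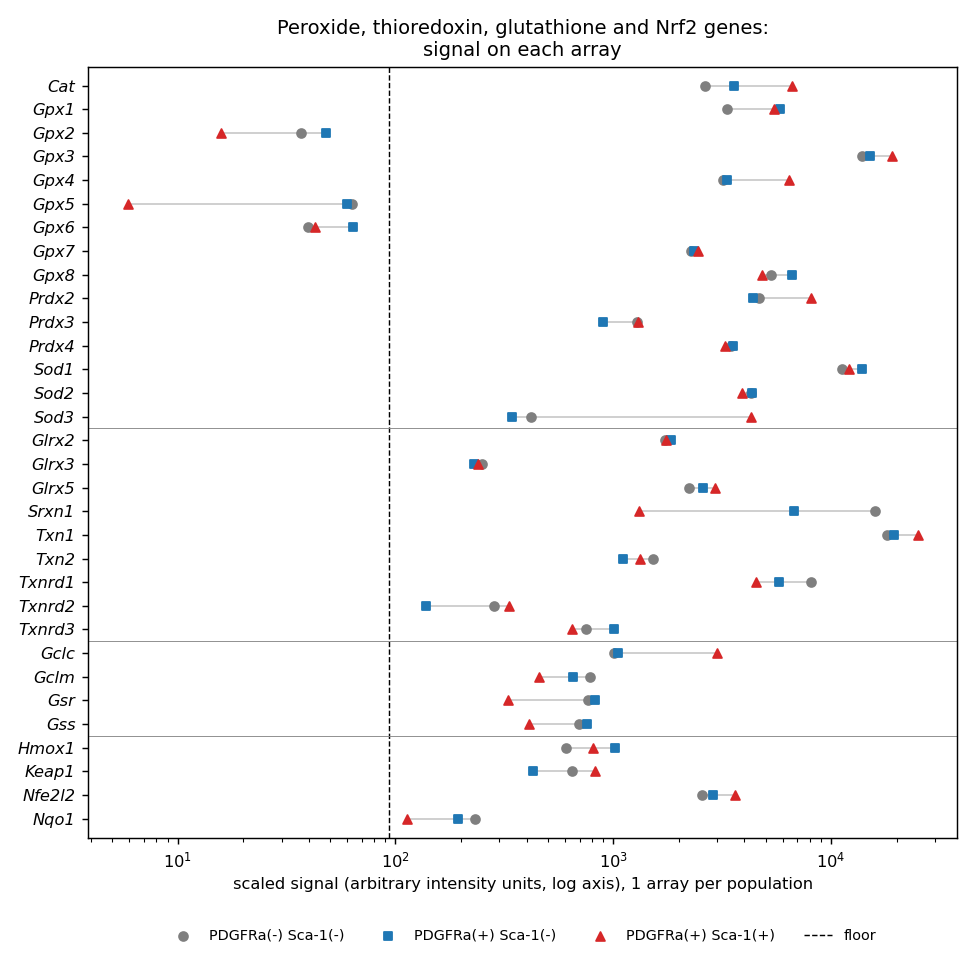
Scaled signal on a log axis of the 32 members other than transferases, 1 marker per population (1 array each), with the floor dashed and lines between the peroxide and superoxide, thioredoxin and glutaredoxin, glutathione, and Nrf2 groups. Sod3 and Gclc have the PDGFRa(+) Sca-1(+) array far to the right and Srxn1 has it far to the left, while most other genes have the 3 markers close together.

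Srxn1 ranged about as widely as Sod3, in the opposite direction. It encodes sulfiredoxin, which restores peroxiredoxins inactivated by excess peroxide, and is a known Nrf2 and AP-1 target. Its signals were 15918, 6739 and 1309 in PDGFRa(-) Sca-1(-), PDGFRa(+) Sca-1(-) and PDGFRa(+) Sca-1(+) cells. Each array was lower than the last, by 2.36-fold at the PDGFRa step and 5.15-fold at the Sca-1 step, and the outermost arrays differed 12.2-fold. All 4 Srxn1 probe sets were lower at both steps, and between the outermost arrays they ranged from 2.30-fold to 18.8-fold.

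Of the 9 thioredoxin and glutaredoxin genes, 7 were within 2-fold in every comparison. At the Sca-1 step 22.2% of the 9 passed 2-fold in either direction, beside 26.2% of all genes. The share was 22.2% beside 10.4% at the PDGFRa step, and 11.1% beside 26.6% between the outermost populations. Txn1, cytosolic thioredoxin, gave 18083, 19415 and 25038, and Txnrd1, which reduces it, gave 8046, 5759 and 4535. Txnrd1 thus ran in the same direction as Srxn1 but stayed within 2-fold, at 1.77-fold lower between the outermost arrays. A further Txnrd1 probe set gave 2.19-fold. Mitochondrial Txn2 gave 1516, 1109 and 1325, and Txnrd3 gave 751, 1008 and 649. Glrx2, Glrx3 and Glrx5, the last of these an iron-sulfur cluster factor, gave 1725, 1844 and 1750.0, then 249, 229 and 239.6, then 2226, 2577 and 2917. Mitochondrial Txnrd2 gave 284, 138 and 333, so it passed 2-fold at the Sca-1 step (2.41-fold higher) and the PDGFRa step (2.06-fold lower). Its other 3 probe sets had log2 ratios of −0.01, −0.48 and −0.16 at the Sca-1 step, so the probe sets disagreed.

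**Figure D4:**
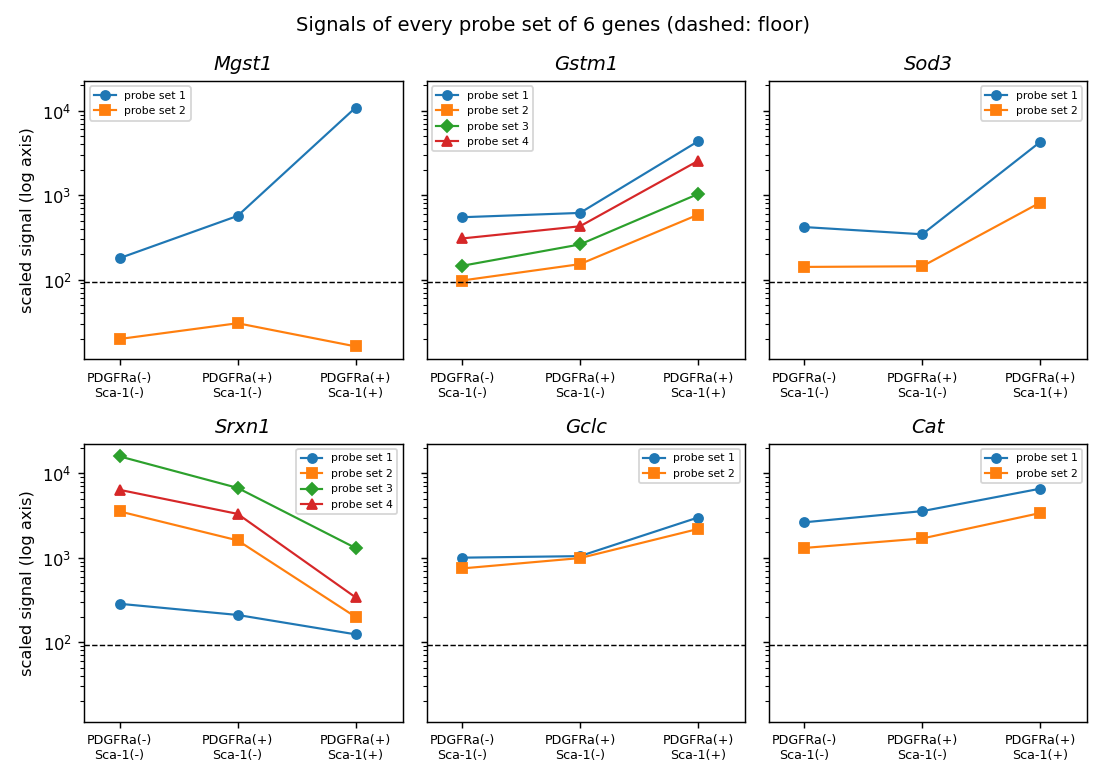
Scaled signal (log axis) of every probe set of Mgst1, Gstm1, Sod3, Srxn1, Gclc and Cat over the 3 populations, 1 array each, with the floor dashed. The probe sets of Gstm1, Sod3, Srxn1, Gclc and Cat keep 1 direction between the PDGFRa(+) populations, whereas the second Mgst1 probe set stays under the floor.

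The 2 subunits of glutamate-cysteine ligase, the enzyme that sets the rate of glutathione synthesis, diverged. Gclc, the catalytic subunit, gave 1005, 1048 and 3003 in PDGFRa(-) Sca-1(-), PDGFRa(+) Sca-1(-) and PDGFRa(+) Sca-1(+) cells. It was 2.86-fold higher in PDGFRa(+) Sca-1(+) than in PDGFRa(+) Sca-1(-) cells, and 2.21-fold by its other probe set. Gclm, the modifier subunit, gave 783, 654 and 458, within 2-fold, and its other probe set gave 376, 283 and 384. Gss, which adds glycine, gave 697, 758 and 412, and Gsr, which regenerates reduced glutathione, gave 768, 826 and 328. Gsr was 2.52-fold lower in PDGFRa(+) Sca-1(+) than in PDGFRa(+) Sca-1(-) cells, or at least 2.98-fold by its other probe set, and Gss was 1.84-fold lower. Of these 4 genes, 1 was therefore higher and 1 lower at the Sca-1 step, where 26.2% of all genes passed 2-fold, and 0 passed it at the PDGFRa step, where 10.4% of all genes did.

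The regulators themselves stayed within 2-fold. Nfe2l2 gave 2554, 2857 and 3612, and its other probe set 284, 291 and 197, so the probe sets differed in direction. Keap1, which targets Nrf2 for breakdown, gave 646, 429 and 825, which is 1.92-fold higher at the Sca-1 step. Its other probe set, near the floor at 86.3, 99.4 and 70.7, did not show this. Hmox1, haem oxygenase, gave 609, 1019 and 806, and was highest in PDGFRa(+) Sca-1(-) cells. The 13 macrophage markers summed to 1776, 2828 and 1053, with 4, 4 and 3 above the floor, so their sum peaked on the same array. Cd14, the brightest of them, gave 1011, 1960 and 367, and Csf1r gave 112, 191 and 158. Cd68 (286, 265 and 239) and Adgre1 (117, 106 and 86.1) did not peak there. The part of the macrophage markers in the Hmox1 values was not tested. Nqo1, a quinone reductase and classical Nrf2 target, gave 232, 195 and 113, and was 2.06-fold lower in PDGFRa(+) Sca-1(+) than in PDGFRa(-) Sca-1(-) cells. Nrf2 is controlled largely through the stability of its protein, which these arrays do not measure.

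Over all 55 genes, 46 could be compared at the Sca-1 step. Of these, 10 were higher and 4 lower, or 30.4% beside 26.2% of all genes, with a median log2 ratio of 0.25. At the PDGFRa step 3 of 45 were higher and 3 lower, or 13.3% beside 10.4%. Between the outermost populations 12 of 46 were higher and 6 lower, or 39.1% beside 26.6%. The comparisons share arrays, so these counts are not separate results. Of the 8 genes that passed 2-fold between the outermost populations and had several probe sets compared, 8 had every probe set in the same direction. At the Sca-1 step this held for 6 of 7, with Txnrd2 the exception.

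Genes with linked roles were read from lists chosen by function, with earlier results of these data known. Of 19 other genes known as Nrf2 targets or partners, 18 were measured, and at the Sca-1 step 8 were higher and 1 was lower, or 50% beside 26.2% of all genes. The median log2 ratio was 0.68, beside 0.07 over all genes. Because Osgin1, Pir and Trim16 lay above the floor on only some arrays, these values describe the list and no more. Akr1b8, an aldose reductase relative, gave 268, 471 and 2098 in PDGFRa(-) Sca-1(-), PDGFRa(+) Sca-1(-) and PDGFRa(+) Sca-1(+) cells, a 4.45-fold step. Cbr3, a carbonyl reductase, gave 244, 422 and 1846, and the epoxide hydrolase Ephx1 gave 1276, 2382 and 8423, steps of 4.38-fold and 3.54-fold. Akr1b8, Cbr3 and Ephx1 were thus highest on the Sca-1(+) array and lowest on the PDGFRa(-) array. They were named for the widest ratio between any arrays, and not all of the higher genes had that order: Aldh3a1 (412, 147 and 667), Osgin1 (95.5, 76.8 and 413) and Fech (1230, 1120 and 2448) were lowest on the PDGFRa(+) Sca-1(-) array. Aldh3a1, named after its value was seen, had a Sca-1 step of 4.54-fold. The ferritin gene Fth1 was within 2-fold, at 21018, 19663 and 25470. The lower gene, named after its value was seen, was Mafg, a DNA-binding partner of Nrf2, at 1871, 1680 and 673. The known targets of Nrf2 were therefore not uniform: Akr1b8, Cbr3, Ephx1 and Gclc were higher and Srxn1 lower in PDGFRa(+) Sca-1(+) cells.

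**Figure D5:**
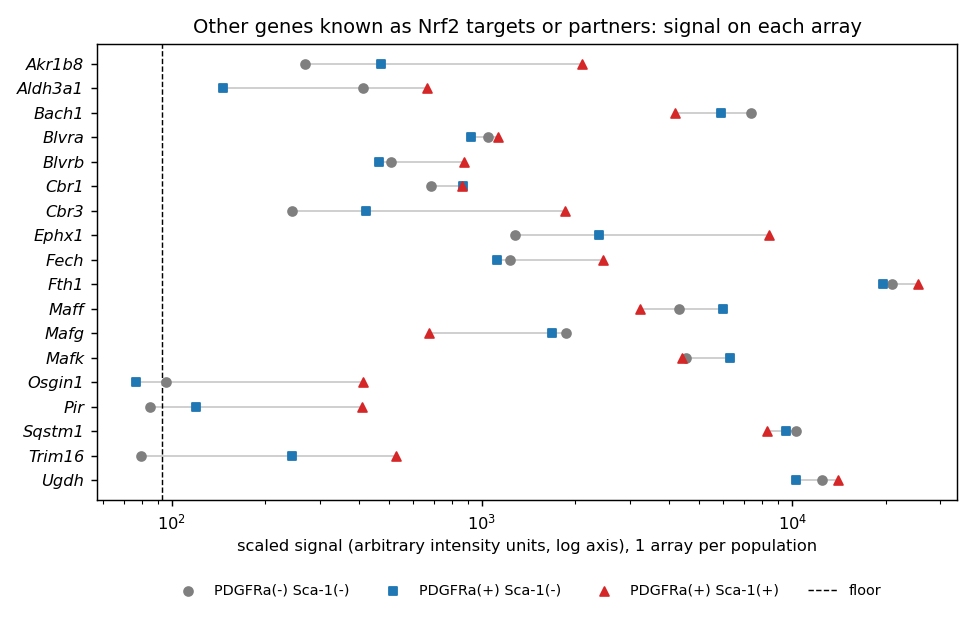
Scaled signal on a log axis of 18 other genes known as Nrf2 targets or partners, 1 marker per population (1 array each), floor dashed. Akr1b8, Cbr3 and Ephx1 step up from PDGFRa(-) Sca-1(-) to PDGFRa(+) Sca-1(+), and Mafg has PDGFRa(+) Sca-1(+) as its lowest array.

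In the list of glutathione breakdown, cysteine uptake and conjugate export, 12 of 17 measured genes could be compared at the Sca-1 step, with 4 higher and 3 lower, or 58.3% beside 26.2% of all genes, and a median log2 ratio of 0.07. Because Cbs and Slc1a1 lay above the floor on only some arrays, these values describe the list and no more. The lower genes had the wider ratios. Chac1, which degrades glutathione, gave 3040, 3403 and 374, and Cth, which makes cysteine by transsulfuration, gave 1920, 1498 and 192. Slc1a1, a glutamate and cysteine transporter, gave 590.1, 1189 and 40.9, the last under the floor. The steps were 9.11-fold and 7.80-fold lower for Chac1 and Cth and at least 12.8-fold lower for Slc1a1. Slc3a2, the heavy chain of the cystine transporter, was within 2-fold at 7383, 5009 and 3841. Slc7a11, listed with it for cysteine uptake, was under the floor on every array, at 44.1, 37.2 and 25.1. The 4 higher genes, named after their values were seen, were Abcc1 (3.76-fold), Ggt5 (2.57-fold), Abcc4 (2.44-fold) and Chac2 (2.26-fold). Abcc1 encodes a pump that exports glutathione conjugates.

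Genes that supply NADPH, the reductant of Gsr and the thioredoxin reductases, were within 2-fold for 7 of 8 at the Sca-1 step, so that 12.5% passed it beside 26.2% of all genes, with a median log2 ratio of −0.12. The exception was malic enzyme, Me1, at 3109, 2703 and 452, which is 5.98-fold lower in PDGFRa(+) Sca-1(+) than in PDGFRa(+) Sca-1(-) cells. Idh1 (2716, 2858 and 5378) and Tkt (15856, 13745 and 8813) ran in opposite directions within 2-fold. Of 17 thioredoxin-fold and sulfoxide repair genes, 0 were higher and 3 lower, or 17.6% beside 26.2% of all genes, and the median was 0.07. The lower ones were Glrx, cytosolic glutaredoxin, at 813, 1598 and 204, the stress-induced Sesn2, at 2701, 2452 and 529, and Nxn, named after its value was seen, at 699, 1044 and 357. Txnip, an inhibitor of thioredoxin, gave 1671, 4696 and 5473, so it differed at the PDGFRa step, by 2.81-fold. Txnl1 was within 2-fold.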

How the data were processed

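Total RNA was amplified in a two-cycle biotin labelling and hybridised to Affymetrix arrays, per the labels' protocols. The deposited values are probe set intensity values on a linear scale, made with MAS5 per the submitters' processing notes; neither its version nor detection calls are stated in those notes. The 2% trimmed mean of the deposited values was 500 on each array. With Python 3.11.15 (numpy and pandas), 64 control probe sets were set aside and arrays were brought to the same 2% trimmed mean. Lower signals were set to the floor, the mean of the array medians, ahead of the log2 step. The platform annotation gave gene symbols: 34945 probe sets had 1 symbol, 932 several and 9160 none, and only those with 1 were used. Each gene was represented by its brightest probe set, by mean log2 signal. All 55 members matched RefSeq (GRCm38.p6) by gene number, which was used for names, gene order and promoters.

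Signals were given for every member at 2-fold or more in any comparison, for the brightest members within 2-fold of each class, and for most others. Of each related list, up to 3 genes with the widest ratio and the brightest within 2-fold were named. The members and lists were chosen with earlier results of these data known. Counting was checked on simulated data. Alternatives covered scaling, floor, choice of probe set and fold threshold.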

Additional observations from a re-analysis of the deposited data

How the results depend on the processing

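With 1 array per population, no replicate could be left out and no paired analysis was possible because each population has a single array. Without rescaling, all counts stayed within 1.5 times those reported, and all 38 member ratios of 2-fold or more kept their direction and passed 2-fold. Every alternative that gave a value for such a ratio kept its direction. The number still at 2-fold was 35 of 38 after quantile normalization, 38 of 38 and 29 of 35 with the floor at the 33rd and 67th percentile, 34 of 38 with a pseudocount of 32 and no floor, 31 of 38 with the mean over probe sets, and 29 of 32 without probe sets of shared suffix. Mgst1, Gstz1 and Gpx4 gave no ratio in the last of these: the remaining Mgst1 probe set was under the floor and the others had none left. Some ratios just past the threshold fell under it. Gstk1 at the PDGFRa step did so with the pseudocount, and Gstt1 at that step with quantile normalization. Nqo1 between the outermost populations did so with both. Nfe2l2 and Gclm, within 2-fold, depend on the probe set.

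Counts moved by more than 1.5 times as follows; the cause was not tested, beyond what a changed threshold does by construction. At a 1.5-fold threshold, all genes higher and lower numbered 3149 and 2379 at the Sca-1 step, 1471 and 1774 at the PDGFRa step, and 2941 and 2594 between the outermost populations. Members higher and lower were 16 and 7 at the Sca-1 step and 6 and 6 at the PDGFRa step, and 10 were lower between the outermost populations. Transferases lower at the PDGFRa step were 3, and peroxide and superoxide enzymes higher were 4, 1 and 5 at the Sca-1 step, the PDGFRa step and between the outermost populations. At a 3-fold threshold, all genes higher and lower were 841 and 693, 202 and 190, and 846 and 714 in the same order. Members lower were 2, 0 and 2, and 1 was higher at the PDGFRa step. Transferases lower were 1, 0 and 1, 1 was higher at the PDGFRa step, and 1 peroxide or superoxide enzyme was higher between the outermost populations.

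At the PDGFRa step, the floor at the 67th percentile gave 365 genes higher and 388 lower and 1 member higher, a transferase; at the Sca-1 step it gave 1 transferase lower. The mean over probe sets gave 369 genes higher, 408 lower and 1 member lower at the PDGFRa step, and 2 peroxide and superoxide enzymes higher at the Sca-1 step. With a pseudocount and no floor, 5 members were higher, all 5 transferases, 1 member was lower and 0 transferases were lower at the PDGFRa step, and 1 peroxide enzyme was lower at the Sca-1 step and 1 between the outermost populations. Without probe sets of shared suffix, 1 transferase was lower and 2 peroxide and superoxide enzymes were higher at the Sca-1 step, and quantile normalization gave 2 of these enzymes higher there. The median log2 ratio over all members at the Sca-1 step was 0.14 with the mean over probe sets, in place of 0.25. Signals of Gstm7, Gstm3 and Nqo1 lay close to the floor, which limits their ratios.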

Other observations

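Enzymes that produce oxidants were read as a list of 16 genes, of which 11 were measured. At the Sca-1 step 5 were higher and 1 lower of the 8 that could be compared, beside 26.2% of all genes in either direction. Duox1, Xdh and Aoc3 lay above the floor on only some arrays and so passed through the array where they are high, and the count describes the list and no more. Nox4, an NADPH oxidase that releases hydrogen peroxide, gave 115, 154 and 3004 in PDGFRa(-) Sca-1(-), PDGFRa(+) Sca-1(-) and PDGFRa(+) Sca-1(+) cells, a 19.5-fold step. Xdh, xanthine dehydrogenase, gave 31.6, 96.4 and 1415, a 14.7-fold step, and the amine oxidase Aoc3 gave 66.4, 104 and 4457. The other higher genes, named after their values were seen, were Duox1 (41.7, 36.4 and 677) and Cyba (814, 741 and 1610), and the lower was Ncf1 (122, 269 and 92.5). The Sca-1(+) array was far above the others for Nox4, Xdh and Aoc3, as it was for Sod3 and Mgst1. Mpo, a peroxidase of neutrophils, gave 44.9, 712 and 655, and the 11 neutrophil markers measured summed to 795, 3351 and 3360. Mpo is itself one of these markers and the brightest of them on both PDGFRa(+) arrays, so the sum contains the Mpo signal. The part of neutrophils in the Mpo values was not tested.

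Among selenoproteins and genes of selenocysteine use, 3 of 19 were higher and 0 lower at the Sca-1 step, near the 14.9% of all genes that were higher. Selenop, the secreted selenium carrier, gave 3434, 6934 and 16953, and Selenbp1, a selenium-binding protein, gave 214, 140 and 1276. Selenon was 2.07-fold higher, and Selenos lay within 2-fold at 14704, 11759 and 10052. The metallothioneins Mt1 (10881, 6158 and 13084) and Mt2 (18053, 11993 and 17931) were lowest on the PDGFRa(+) Sca-1(-) array. Of 5 relatives of the microsomal and sigma-class transferases, 3 were compared, and the prostaglandin synthase gene Ptges, at 115, 89.99 and 248, was at least 2.66-fold higher at the Sca-1 step.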
